A study of Mus musculus with 6 samples.

Results

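The glucocorticoid receptor gene Nr3c1 and 5 genes that the receptor is known to induce, Tsc22d3, Fkbp5, Dusp1, Klf9 and Sgk1, are described here in regulatory T cells (Tregs) of the inflamed mouse colon. They were picked by symbol, with earlier results of these data known. Each symbol matched 1 row of the deposited table, and the 6 are among its 24537 genes. All 6 passed the filter on low values, which kept 13211 genes. Every library comes from colon Tregs, and all mice had received TNBS, a chemical hapten that sets off T cell-driven inflammation of the bowel wall. It was applied as 150 µl at 1% to the skin and, 7 days later, as 100 µl at 2.5% into the rectum. By the genotype in their labels, 3 libraries are REV-ERB KO and 3 are REV-ERB WT, and the comparison asks how loss of REV-ERB, a transcriptional repressor of the circadian clock, alters colitis Tregs. Strain, age, sex and hour of sampling of the mice, the exons removed and the cells in which they were removed were not stated in the labels. No group without colitis was analysed. Whether the replicates are separate animals is not stated, so p-values measure the spread between these libraries, which may be technical.

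Glucocorticoids are steroid hormones of the adrenal gland, released in a daily rhythm and under stress, and also made locally in the gut. Without hormone the receptor is held in the cytoplasm by Hsp90 and its co-chaperones. With hormone it enters the nucleus, raises genes that carry its response element and lowers many inflammatory genes. Tsc22d3 (GILZ) and Dusp1 encode anti-inflammatory effectors, Fkbp5 encodes a co-chaperone that dampens the receptor, Klf9 encodes a transcription factor and Sgk1 a kinase.

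Of the 6 genes, Tsc22d3 alone had groups that did not overlap: all 3 values with the KO label lay below all 3 with the WT label, with a difference of -0.52 on the log2(TPM + 1) scale. TPM corrects reads for the length of the transcript and the depth of the library. Among all genes tested, 10.4% were lower in all libraries labelled KO and 10.6% were higher in all of them, so 1 of 6 is near the background. None of the 6 passed the threshold of 0.05 on the adjusted p of limma's moderated test, and neither did any of the 13211 genes (0.00%), nor any with voom on recovered reads. At an unadjusted limma p under 0.05 there were 2068 genes (15.7%; 7.86% lower and 7.80% higher with the KO label), and Tsc22d3 was the only 1 of the 6 among them. Nr3c1, Fkbp5, Dusp1, Klf9 and Sgk1 varied more among the libraries labelled KO, by the SD of log2(TPM + 1), than between the groups. The plot of TPM by library shows both features.

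**Figure D1:**
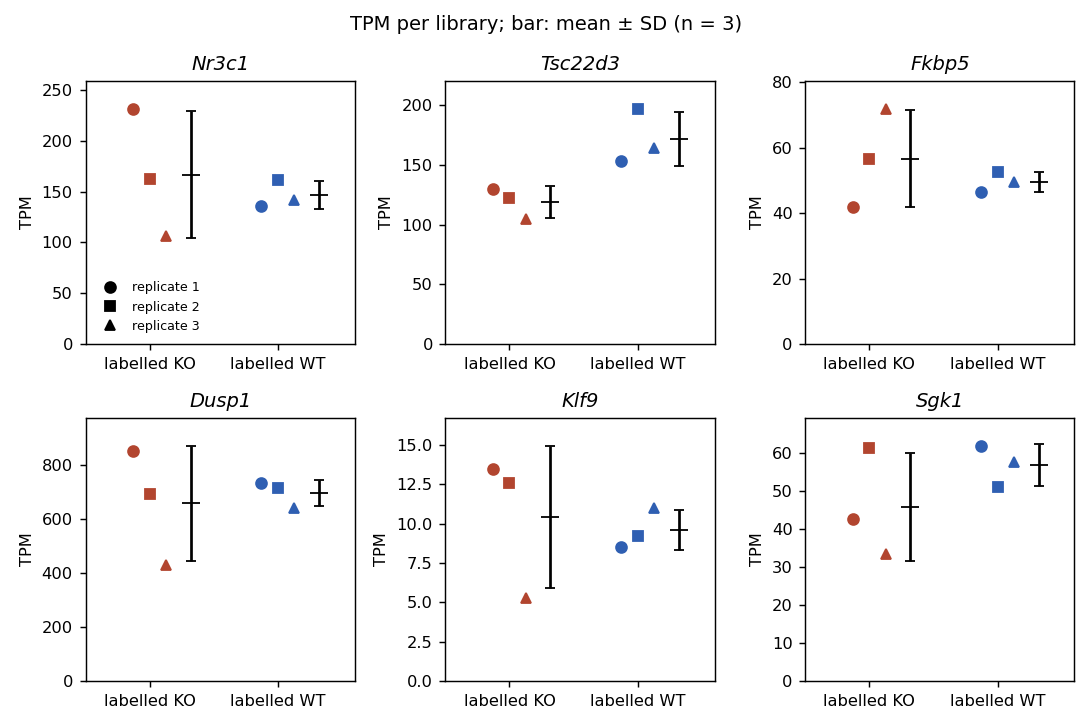
TPM (vertical axis, from 0) of the 6 genes in the 3 libraries labelled KO (red) and the 3 labelled WT (blue), marked by replicate, with mean ± SD in black. Tsc22d3 has no overlap between groups, and for Nr3c1, Fkbp5, Dusp1 and Klf9 the libraries labelled KO lie both above and below those labelled WT.

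The libraries held 12641850 to 15890630 recovered reads in those labelled KO and 9794480 to 12122575 in those labelled WT. Nr1d1, which encodes REV-ERBα, was not lower with the KO label: it stood at 155 ± 13.9 against 86.2 ± 18.9 TPM (mean ± SD, n = 3, as for all such values here), measured over the whole transcript. This does not check the deletion, and all directions follow the labels. Foxp3, the defining transcription factor of Tregs, stood at 201 ± 32.1 against 568 ± 108 TPM. The summed TPM of 12 Treg and T cell markers was 5209 to 5780 in the libraries labelled KO and 6805 to 7766 in those labelled WT. The sum of 17 epithelial markers was 3624 to 6686 against 2303 to 3442 TPM, and 12 of the 17 were higher in all libraries labelled KO. None of these markers was listed at 0 in all libraries. In bulk RNA, fewer cells of a type and less RNA per cell cannot be told apart, and the part of other cells in the values below was not tested unless a value is given.

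Nr3c1 (NM_008173, mm10 chromosome 18, 39410545 to 39487245, minus strand) encodes the receptor itself. Its row is a transcript of 8 exons among 9 that GENCODE lists, and a single row cannot separate them. It was abundant, with a mean over all libraries above that of 94.8% of the genes tested. Replicates 1, 2 and 3 labelled KO measured 231, 162 and 106 TPM, and those labelled WT measured 136, 162 and 142 TPM. The libraries labelled KO held both the highest and the lowest value, with all libraries labelled WT in between. The means were 166 ± 62.4 and 146 ± 13.6 TPM. The difference was 0.12 on the log2 scale, with a 95% interval from -0.46 to 0.70 (limma adjusted p = 0.845, exact permutation p = 0.7). The difference was -0.15 without replicate 1 labelled KO and 0.40 without replicate 3 labelled KO, so single libraries set its sign. With 7095 to 12342 reads per library labelled KO behind these values, counting error is small beside the spread.

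Fkbp5 (NM_010220, chromosome 17, 28398753 to 28486149, minus strand, 11 exons) encodes FKBP51, which binds Hsp90 in the receptor complex and lowers its affinity for hormone. As a gene induced by the receptor it closes a short feedback loop. With the KO label replicates 1, 2 and 3 measured 41.9, 56.4 and 71.7 TPM, and with the WT label 46.5, 52.6 and 49.3 TPM. The order of Fkbp5 among the libraries labelled KO was the reverse of that of Nr3c1. The difference between groups was 0.16 (95% interval -0.27 to 0.59, limma adjusted p = 0.699, exact permutation p = 0.6). Without replicate 3 labelled KO it was -0.02, and without replicate 1 labelled KO 0.36. With a summary score of epithelial markers as covariate it was 0.37. That score was 7.15, 7.71 and 6.84 in replicates 1, 2 and 3 labelled KO and 6.72, 5.98 and 6.40 in those labelled WT. It did not overlap between the groups. Here and below, a change with this covariate therefore cannot tell the score apart from the label.

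Tsc22d3 (NM_010286, chromosome X, 140539529 to 140543187, minus strand, 3 exons) encodes GILZ, a leucine zipper protein that binds NF-κB and AP-1 and restrains T cell activation. Its row is a short transcript of a gene with 6 transcripts in GENCODE, of which 3 are protein-coding, so reads of shared exons are not assigned to an isoform. Replicates 1, 2 and 3 measured 129.9, 123 and 104 TPM with the KO label and 153, 196 and 164 TPM with the WT label. The highest library labelled KO lay below the lowest labelled WT, and the spread was alike in both groups, at 119 ± 13.2 and 171 ± 22.4 TPM. The difference was -0.52 (SE 0.13, 95% interval -0.82 to -0.22), or 1.44-fold lower with the KO label. Its limma adjusted p was 0.167 at an unadjusted p of 0.00401, beside the 7.86% of all genes that were lower at an unadjusted p under 0.05. By exact permutation p was 0.1, which no comparison of 3 with 3 libraries can undercut. Over all 15 alternatives its difference ran from -0.60 to -0.42 and the adjusted p from 0.0527 to 0.998, the latter with an epithelial score as covariate, where the difference was -0.46.

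Dusp1 (NM_013642, chromosome 17, 26505591 to 26508472, minus strand, 4 exons) encodes MKP-1, a phosphatase that switches off the MAP kinases p38 and JNK. It was the most abundant of the 6, above 99.2% of the genes tested by its mean. Replicates 1, 2 and 3 labelled KO measured 851, 694 and 429 TPM, and those labelled WT 732, 716 and 642 TPM. As with Nr3c1, the libraries labelled KO held the extremes. The difference of -0.14 (95% interval -0.67 to 0.40, limma adjusted p = 0.804, exact permutation p = 0.8) turned to 0.14 without replicate 3 labelled KO. With array weights, which gave that replicate the lowest weight (0.427), it was 0.08, and with the epithelial covariate -0.47. Dusp1 is also raised within minutes by stimulation and cell isolation, through elements other than that of the receptor. Its RefSeq promoter window, 250 bases before to 50 after the start, is shown because it holds a cyclic AMP response element (TGACGTCA) at -143 and an E-box (CACGTG) at -126 from the start, both in capitals. On either strand these letters occur in 1.79% and 7.15% of the 32851 windows of all genes.
Dusp1, GRCm38 chr17:26508423-26508722, minus strand: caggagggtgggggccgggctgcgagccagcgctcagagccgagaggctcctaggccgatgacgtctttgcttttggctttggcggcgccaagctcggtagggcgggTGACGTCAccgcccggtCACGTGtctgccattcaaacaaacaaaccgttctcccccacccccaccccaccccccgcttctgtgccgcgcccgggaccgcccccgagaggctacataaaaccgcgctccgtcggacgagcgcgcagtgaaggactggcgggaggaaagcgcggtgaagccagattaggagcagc

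Klf9 (NM_010638, chromosome 19, 23141226 to 23166911, plus strand, 2 exons) encodes a zinc finger repressor that is both a target of the receptor and rhythmic in several tissues. Its row overlaps that of Mir1192 on the same strand. It was the least abundant of the 6, resting on 181 to 380 reads with the KO label and 182 to 269 with the WT label. Replicates 1, 2 and 3 labelled KO measured 13.5, 12.6 and 5.26 TPM, and those labelled WT 8.54, 9.20 and 11.01 TPM. Replicates 1 and 2 labelled KO lay above all libraries labelled WT and replicate 3 below all of them. The difference of 0.025 (95% interval -0.72 to 0.77, limma adjusted p = 0.980, exact permutation p = 1.0) was 0.41 without replicate 3 labelled KO. It was -0.19 without replicate 1 and -0.145 without replicate 2 labelled KO, -0.05 without replicate 1 labelled WT, and -0.50 with the epithelial covariate.

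Sgk1 (NM_011361, chromosome 10, 21994666 to 21999902, plus strand, 12 exons) encodes a kinase activated through mTORC2 that phosphorylates Foxo factors and is known to favour Th17 cells over Tregs. Replicates 1, 2 and 3 labelled KO measured 42.6, 61.3 and 33.3 TPM, and those labelled WT 61.8, 50.9 and 57.6 TPM. Replicates 1 and 3 labelled KO lay below all libraries labelled WT, and replicate 2 lay within them. The difference was -0.34 (95% interval -0.83 to 0.14, limma adjusted p = 0.453, exact permutation p = 0.3). It stayed below 0 in all 15 alternatives, from -0.97 with the epithelial covariate to -0.14 without replicate 3 labelled KO, where a single library again moved it by more than 1.5 times. Without replicate 2 labelled KO it was -0.57.

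Of 12 RefSeq promoter windows matched to Sgk1, Dusp1, Fkbp5, Klf9 and Tsc22d3, 1 held the receptor's response element, searched as GNACA and TGTNC with 3 bases between them, a pattern that reads alike on both strands. It belongs to Sgk1, and 0.475% of all windows hold these letters. The window is shown because the element in it, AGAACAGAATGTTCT (chromosome 10, 21993701 to 21993715), is a perfect inverted repeat of AGAACA around 3 bases. Its start site is at -776 from the start of the measured row, and the element ends 951 bases upstream of that row. The capitals mark the matched pattern.
Sgk1, GRCm38 chr10:21993640-21993939, plus strand: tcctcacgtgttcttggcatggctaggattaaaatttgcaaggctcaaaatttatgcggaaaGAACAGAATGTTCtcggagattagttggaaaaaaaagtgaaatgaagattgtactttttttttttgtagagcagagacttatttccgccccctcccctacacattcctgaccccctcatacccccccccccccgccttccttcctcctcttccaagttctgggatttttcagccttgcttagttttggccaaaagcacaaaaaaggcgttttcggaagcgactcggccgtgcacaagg
The repeat unit AGAACA alone, on either strand, was found in 4 of the 12 windows, of Sgk1 and Tsc22d3, against 19.0% of all windows. Their start sites are at -112482, -2443 and -776 from the start of the measured row of Sgk1 and at -57335 from that of Tsc22d3. The core letters bound by REV-ERB, AGGTCA, were found in 2, both of Sgk1, against 16.3%. These 2 start at -15994 and -8562 from the measured row. The E-box was found in 3 of the 12 windows, of Dusp1, Fkbp5 and Sgk1, against 7.15%. That of Sgk1 lies in the window shown above, in small letters. These are matches of letters in short windows, and many response elements of these genes are known to lie further away.

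The plot of differences with 1 library left out shows how far each value rests on single libraries labelled KO. Without 1 library labelled WT the difference of Nr3c1 ran from 0.065 to 0.19 and that of Fkbp5 from 0.12 to 0.20. Without 1 labelled KO the first ran from -0.15 to 0.40 and the second from -0.02 to 0.36.

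**Figure D2:**
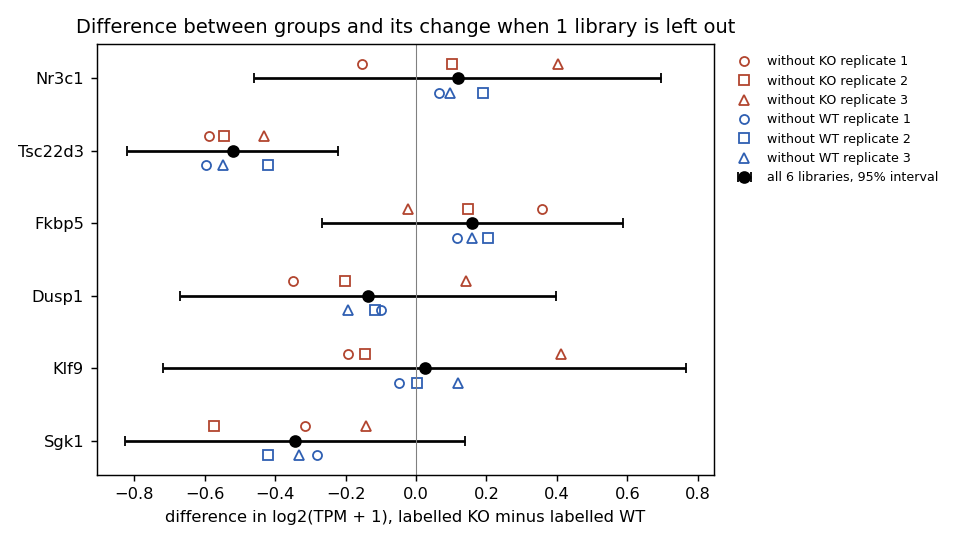
Difference in log2(TPM + 1), labelled KO minus labelled WT (horizontal axis), with the limma 95% interval in black and the value without each library as open marks. Only the interval of Tsc22d3, from -0.82 to -0.22, lies wholly to one side of 0.

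The spread within the libraries labelled KO was itself unequal between the genes. The highest of them was 2.17 times the lowest for Nr3c1, 1.98 times for Dusp1, 2.56 times for Klf9, 1.84 times for Sgk1 and 1.71 times for Fkbp5, but 1.24 times for Tsc22d3. In the libraries labelled WT these ratios were 1.13 to 1.29 for all 6. Of the 10301 genes with a mean of at least 5 TPM, 6.3% had a larger SD of log2(TPM + 1) among libraries labelled KO than Nr3c1. The shares were 8.1% for Dusp1, 3.8% for Klf9, 11.9% for Sgk1, 16.0% for Fkbp5 and 56.7% for Tsc22d3. Among libraries labelled WT the corresponding shares were 63.7% for Nr3c1, 75.3% for Dusp1, 49.0% for Klf9, 60.4% for Sgk1, 81.0% for Fkbp5 and 45.1% for Tsc22d3. Nr3c1, Tsc22d3, Dusp1 and Klf9 were highest in replicate 1, then 2, then 3 labelled KO, an order shared by 13.6% of the 10301 genes. The reverse order of Fkbp5 was that of 25.8%, the largest share.

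**Figure D3:**
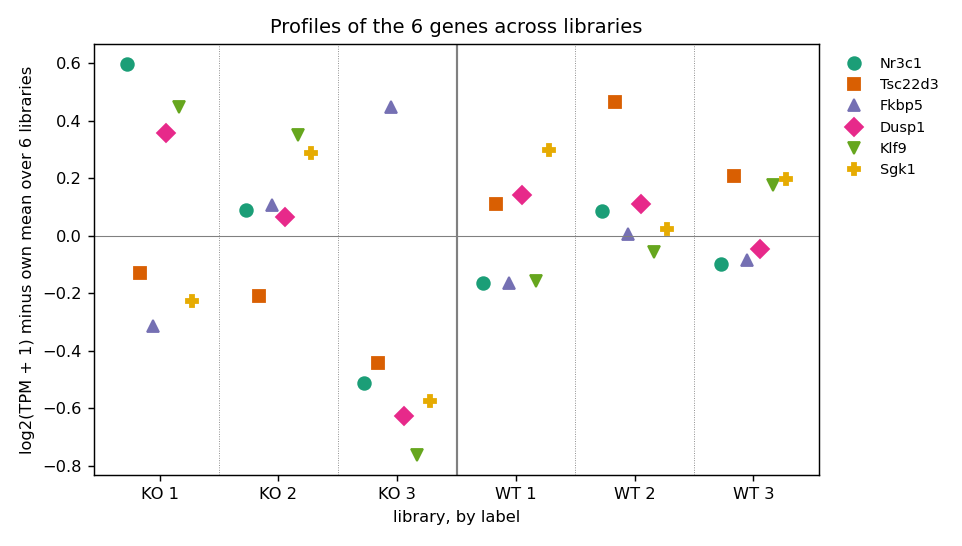
log2(TPM + 1) minus each gene's own mean over the 6 libraries (vertical axis), by library. In replicate 3 labelled KO 5 genes lie below their mean, down to -0.76 for Klf9, while Fkbp5 lies at 0.45.

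Other measures differed between the same 3 libraries. In replicates 1, 2 and 3 labelled KO the total reads were 12641850, 13848375 and 15890630. There, the summed TPM of 7 B cell and plasma cell markers was 2081, 1345 and 540.2, and that of 11 fibroblast and muscle markers was 603, 522 and 349. In replicates 1, 2 and 3 labelled WT these sums were 1540, 1466 and 715 and 253, 424 and 576 TPM, where Nr3c1 measured 136, 162 and 142 TPM. The CD8 T and NK sum also fell from replicate 1 to 3 labelled KO, at 61.1, 57.6 and 34.0 TPM. The 1 tested mast cell and eosinophil marker, Prg2, fell in the same order, at 5.1, 3.9 and 2.5 TPM. With the KO label the Treg and T cell sum, 5780, 5209 and 5473 TPM, had another order. So had the epithelial sum, at 4127, 6686 and 3624 TPM. So had the macrophage and dendritic cell sum (992, 1688 and 917 TPM) and the endothelial sum (49.7, 63.3 and 49.1 TPM). The neutrophil sum had the reverse order, at 7.4, 30.6 and 41.3 TPM, which is that of Fkbp5. Whether these other cells bear on the spread of Nr3c1, Dusp1 and Klf9 was not tested.

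Because Nr3c1 varied so much, each response gene was also expressed as a TPM ratio to Nr3c1 within the same library, a quantity chosen after the values were seen. The ratio cancels any scaling of a library. For Tsc22d3 it was 0.562, 0.757 and 0.981 in replicates 1, 2 and 3 labelled KO and 1.13, 1.22 and 1.16 in those labelled WT. For Dusp1 it was 3.68, 4.28 and 4.03 against 5.39, 4.43 and 4.52. Both ratios were lower in all libraries labelled KO, with log2 differences of -0.64 and -0.25. Leaving out 1 library moved that of Tsc22d3 from -0.84 (without replicate 3 labelled KO) to -0.44 (without replicate 1 labelled KO). The ratio of Dusp1 was at -0.16 without replicate 1 labelled WT. Of the ratios of all 13210 other genes to Nr3c1, 2.81% were lower in all libraries labelled KO. All these ratios share the Nr3c1 values as denominator, so they are not separate observations. The wide spread of Nr3c1 with the KO label, 106 to 231 TPM, also enters the share of 2.81%. The values of Dusp1 itself overlapped between the groups. For Fkbp5, Klf9 and Sgk1 the groups overlapped, at 0.401 ± 0.25, 0.0618 ± 0.0143 and 0.292 ± 0.0988 against 0.339 ± 0.0117, 0.0658 ± 0.0106 and 0.392 ± 0.0712. Their log2 differences ran from -0.43 to 0.52, from -0.28 to 0.045 and from -0.69 to -0.17 when 1 library was left out. The exact permutation p was 0.1 for Tsc22d3 and Dusp1, the smallest possible, and 0.25 after Benjamini-Hochberg adjustment over the 5 ratios. Neither value counts the choice of the ratio after the values were seen, so no conclusion is drawn from them.

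Relatives of the response genes and the lists below held no gene that passed the threshold. Their counts of groups without overlap stand beside 10.6% of all genes higher and 10.4% lower. The lists were chosen with earlier results of these data known, so their counts and medians are descriptions and test nothing. In the TSC22 family, Tsc22d1 stood at 51.2 ± 14.7 against 31.9 ± 7.59 TPM (0.65, limma adjusted p = 0.289), but at -0.07 with the epithelial covariate. Tsc22d4 stood at 90.2 ± 23.3 against 97.2 ± 13.3 TPM and Tsc22d2 at 12.7 ± 1.28 against 13.0 ± 0.897 TPM. Among 11 MAP kinase phosphatases, 2 were higher and 2 lower in all libraries labelled KO, against 10.6% and 10.4% of all genes. Dusp10, which acts on p38 and JNK as Dusp1 does, stood at 119 ± 25.1 against 79.4 ± 6.30 TPM (0.56, limma adjusted p = 0.191). With the epithelial covariate its difference was 0.67. Dusp4 stood at 203 ± 16.6 against 293 ± 61.2 TPM, and Dusp2 at 54.4 ± 6.21 against 67.4 ± 5.58 TPM. Their differences of -0.51 and -0.31 were -0.11 and -0.07 with the epithelial covariate. Dusp5, the second most abundant of them after Dusp1, stood at 323 ± 63.8 against 299.9 ± 21.5 TPM. Of 16 MAP kinases and their activators, 2 were higher and 1 lower in all libraries labelled KO. Map2k7, which activates JNK, was the 1 that was lower, at 36.4, 36.3 and 44.5 TPM against 49.1, 54.2 and 46.7 TPM (-0.35, limma adjusted p = 0.249), and at -0.13 with the epithelial covariate. Mapk3 (ERK1) was higher in all of them, at 122 ± 19.3 against 92.7 ± 16.1 TPM, but its difference of 0.395 was 0.001 with the epithelial covariate and 0.25 without replicate 2 labelled WT. Mapk13 (p38δ) stood at 32.5 ± 10.4 against 20.1 ± 5.03 TPM, and its difference of 0.65 was -0.08 with the epithelial covariate.

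In the KLF family, 10 of 13 tested members were below 0 and 3 above, with a median of -0.09, and 1 was lower in all libraries labelled KO, a share below the 10.4% of all genes. That was Klf13, a regulator of lymphocyte survival and of chemokine genes, at 47.6 ± 5.13 against 59.7 ± 2.09 TPM (-0.33, limma adjusted p = 0.242). With the epithelial covariate its difference was -0.39. Klf6 and Klf2, at 329.9 ± 77.7 against 416 ± 36.9 and 156 ± 10.9 against 184 ± 25.9 TPM, were far more abundant than Klf9. Klf5, an epithelial factor, stood at 68.1 ± 25.6 against 37.7 ± 17.0 TPM, and its difference of 0.89 went to -0.32 with the epithelial covariate. In the FKBP family 3 of 14 tested members were higher in all libraries labelled KO and 0 lower, against 10.6% and 10.4% of all genes. Fkbp11 and Fkbp2, proteins of the endoplasmic reticulum, were 2 of them, at 8.63 ± 3.51 against 3.95 ± 0.716 and 104.5 ± 4.998 against 84.8 ± 9.25 TPM. Their differences of 0.91 and 0.30 were 0.29 and 0.15 with the epithelial covariate. Fkbp4, the co-chaperone that promotes receptor activity where Fkbp5 dampens it, stood at 154 ± 21.8 against 127 ± 15.2 TPM (0.27, limma adjusted p = 0.396). With the epithelial covariate its difference was 0.33.

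Around Sgk1, 3 of the 17 genes of its pathway were lower in all libraries labelled KO and 1, Sgk2, was higher at a low level (2.28 ± 0.746 against 1.29 ± 0.308 TPM). Over all genes 10.4% were lower and 10.6% higher. The 3 were Foxo1, Rictor and Tsc22d3. The lack of overlap of Tsc22d3 was already reported above, so this count is not separate from it. Foxo1, a transcription factor that Sgk1 excludes from the nucleus and that Tregs need, stood at 89.4 ± 7.91 against 124 ± 16.4 TPM (-0.47, limma adjusted p = 0.191). With the epithelial covariate its difference was -0.405. Rictor, the mTORC2 subunit through which Sgk1 is activated, stood at 16.5 ± 0.923 against 23.1 ± 1.87 TPM (-0.46, limma adjusted p = 0.195), and its difference was -0.27 with the epithelial covariate. Sgk3 was low, at 2.64 ± 0.613 against 2.24 ± 0.176 TPM.

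The machinery that holds and serves the receptor was described next. Of 14 chaperones, 2 were lower and 0 higher in all libraries labelled KO, with a median of -0.02, near the 10.4% of all genes that were lower. They were Dnaja1 (119 ± 6.43 against 143 ± 4.58 TPM) and Hsp90aa1, the inducible Hsp90 (449.7 ± 25.1 against 528 ± 41.3 TPM). Their differences of -0.26 and -0.23 were -0.29 and -0.31 with the epithelial covariate. Hsp90ab1, the constitutive form, was level at 2253 ± 134 against 2254 ± 124 TPM, with a difference of -0.001. Of 22 coregulators, 17 were below 0 and 5 above, with a median of -0.14, beside a median of -0.003 and 49.5% above 0 over all genes. Crebbp and Ep300, related histone acetyltransferases, were the 2 lower in all libraries labelled KO, against 10.4% of all genes, at 31.6 ± 3.12 against 40.9 ± 4.48 and 34.0 ± 4.39 against 42.1 ± 4.08 TPM. The difference of Crebbp, -0.36, was -0.34 with the epithelial covariate. Ncoa3, a p160 coactivator, stood at 73.5 ± 11.6 against 104 ± 16.7 TPM (-0.49, limma adjusted p = 0.226), a difference of -0.10 with the epithelial covariate. Kmt2d, a histone methyltransferase, stood at 37.2 ± 6.23 against 49.4 ± 8.396 TPM, and its difference of -0.40 was -0.14 with the epithelial covariate. None of these passed the threshold.

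Of 17 genes for the synthesis, conversion, export and binding of steroids, 11 were tested. Of these, 10 were above 0 and 1 below, beside 49.5% above 0 over all genes. In all libraries labelled KO 2 were higher and 0 lower, against 10.6% and 10.4% of all genes. Cyp11b1 and Cyp21a1, for synthesis, stood at 0 TPM in all libraries, and Hsd3b1 and Star below 1 TPM, so they were not tested. Hsd11b2, which inactivates the hormone and is known as an epithelial enzyme, was higher in all libraries labelled KO, at 50.4 ± 12.7 against 30.7 ± 7.57 TPM (0.70, limma adjusted p = 0.236). Its difference was -0.05 with the epithelial covariate. Nr5a2 (LRH-1), which drives local steroid synthesis in the gut epithelium, was the other that did not overlap, at 5.38 ± 0.928 against 3.68 ± 0.410 TPM. Its difference of 0.44 was 0.35 with the epithelial covariate. Srd5a1, which reduces steroids, stood at 1.70 ± 0.467 against 0.816 ± 0.657 TPM, and its difference of 0.62 was -0.11 with the epithelial covariate. Hsd11b1, which reactivates the hormone, stood at 23.0 ± 2.97 against 20.9 ± 2.22 TPM, and Nr3c2, the mineralocorticoid receptor, at 7.29 ± 3.01 against 5.55 ± 1.05 TPM. Per length, Nr3c1 was far above Nr3c2 in both groups. The exporter Abcb1a stood at 127 ± 39.5 against 91.7 ± 16.7 TPM.

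Of 49 other tested genes known to be raised by glucocorticoids, 24 were above 0 and 25 below, with a median of -0.01, and 5 were lower and 0 higher in all libraries labelled KO. Over all genes 10.4% were lower and 10.6% higher, so 5 of 49 lower is near the background and 0 higher is below it. The 5 were Sesn1, Foxo1, Klf13, Il7r and Dusp2. Foxo1, Klf13 and Dusp2 also belong to lists above, so the counts of these lists are not separate. Sesn1, a stress-induced inhibitor of mTORC1, stood at 41.6 ± 6.97 against 69.4 ± 7.03 TPM (-0.73, limma adjusted p = 0.1296), and its difference was -0.35 with the epithelial covariate. Il7r, the IL-7 receptor chain, stood at 183 ± 29.3 against 247 ± 38.1 TPM. Per1, a clock gene with a response element of the receptor, was named outside the rule for named genes and stood at 104 ± 7.70 against 122 ± 14.95 TPM (-0.23, limma adjusted p = 0.395). Of 19 clock genes, which glucocorticoids help to set, 4 were higher and 2 lower in all libraries labelled KO, against 10.6% and 10.4% of all genes. Npas2, a partner of Bmal1 in the clock, was 1 of the higher, at 8.53 ± 0.709 against 4.42 ± 1.30 TPM (0.84, limma adjusted p = 0.190).

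Of 27 tested genes known to be lowered by glucocorticoids, 21 were above 0 and 6 below, with a median of 0.30, and 6 were higher and 0 lower in all libraries labelled KO. Over all genes 49.5% were above 0, the median was -0.003, and 10.6% were higher and 10.4% lower. This list too was chosen with earlier results of these data known, so its counts are a description and no test. Some lists of other cells were wholly above 0: all 17 epithelial, 11 fibroblast and muscle, 4 tested endothelial and 4 tested neutrophil markers. The last had a median of 1.73 and a sum of 7.4 to 41.3 TPM with the KO label and 3.8 to 10.2 with the WT label. Macrophage and dendritic markers had 11 above and 1 below, B cell and plasma cell markers 3 and 4, and CD8 T and NK markers 3 and 2. The 1 tested mast cell and eosinophil marker was below 0. The part of other cells in the list of lowered genes was not tested. Ccl20, a chemokine for Th17 cells, stood at 58.0 ± 8.74 against 21.3 ± 7.10 TPM (1.45, limma adjusted p = 0.119). Il17a stood at 41.6 ± 7.14 against 19.7 ± 4.70 TPM and Il5 at 51.2 ± 8.51 against 25.6 ± 7.26 TPM. These are also genes of the T helper programs, and none passed the threshold. With the epithelial covariate the differences of Ccl20, Il17a and Il5 were 1.85, 1.02 and 0.74. Of 23 immediate early genes, 2 were higher and 2 lower in all libraries labelled KO, with a median of 0.03, against 10.6% and 10.4% of all genes. Ier3, a survival gene induced by NF-κB, stood at 51.5 ± 11.7 against 28.0 ± 5.39 TPM, and its difference of 0.85 was 0.38 with the epithelial covariate. Jun, a subunit of AP-1, stood at 447 ± 74.9 against 572 ± 39.9 TPM, and its difference of -0.37 was -0.67 with that covariate. Hspa1b, which shares reads with its near copy Hspa1a, stood at 872 ± 165 against 1169 ± 101 TPM. Its difference of -0.435 was -0.29 with that covariate. The plot of the gene lists sets these side by side.

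**Figure D4:**
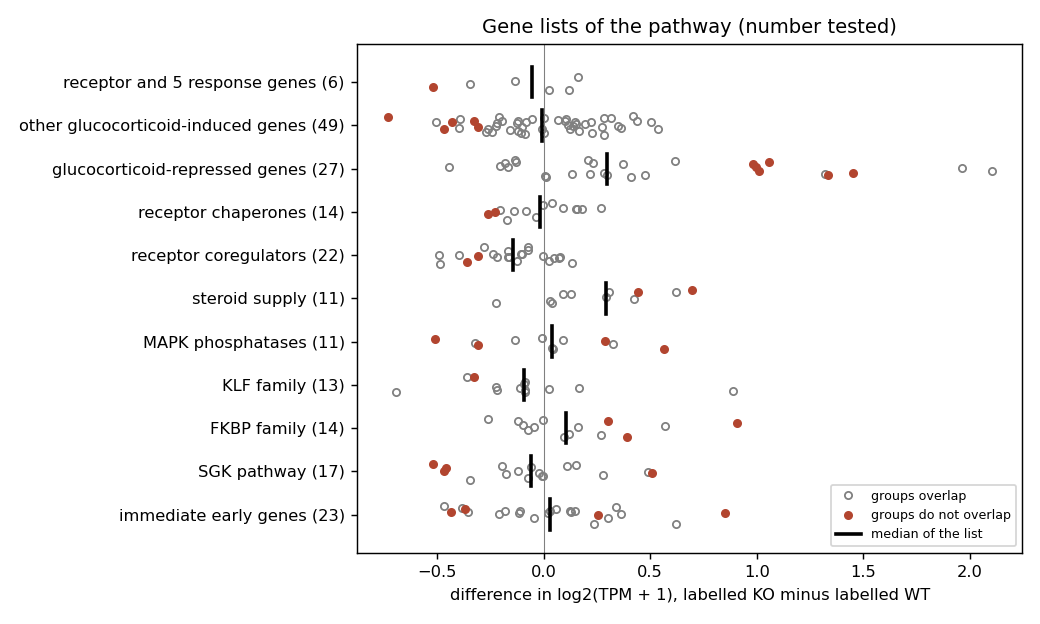
Difference in log2(TPM + 1), labelled KO minus labelled WT (horizontal axis), for each tested gene of 11 lists, with the list median as a black bar and filled points where the groups do not overlap. The other glucocorticoid-induced genes centre on -0.01 and the glucocorticoid-repressed genes on 0.30. The lists were chosen with earlier results of these data known.

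Likeness was measured as the root-mean-square distance between profiles of log2(TPM + 1) over the 6 libraries, each centred on its own mean. Among the 6, Nr3c1 and Dusp1 were closest (0.167), then Nr3c1 and Klf9 (0.205) and Dusp1 and Klf9 (0.214). Fkbp5 and Klf9 were farthest apart (0.602). Over all genes tested, those nearest to Tsc22d3 were Sgms1 (0.0336), Tmem136 (0.0553) and Foxo1 (0.0569). Foxo1 measured 93.7, 94.3 and 80.3 TPM with the KO label and 107, 140.1 and 126 TPM with the WT label. Nearest to Nr3c1 were Vkorc1 (0.117), Vps37b (0.123) and Cd44 (0.125), an adhesion receptor of activated T cells at 168 TPM on average with the KO label and 163 with the WT label. Nearest to Dusp1 were Dennd4a (0.0505), Ifit1 and Myadm, and near to Fkbp5 were Limk2 (0.0509) and Aldoc (0.0587). Nearest to Klf9 were Ptges (0.0209), Bdkrb2 and Dlc1, all between 0.546 and 4.99 TPM. Nearest to Sgk1 were Slc35e4 (0.0546), 5730409E04Rik and Tubb2b, also at low levels.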

How the data were processed

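RNA-seq values of 6 libraries were used, 3 labelled KO and 3 labelled WT. The deposited values are TPM per RefSeq transcript, made by the authors, per the file headers. The submitters' processing notes name FastQC 0.11.8, Trim Galore 0.4.4, STAR 2.5.3a, HOMER 4.9.1 and mm10. They do not say whether counting used strand. Reads were recovered from TPM times length, with 99.99% of values up to 500 reads within 0.1 of a whole number in each library. Genes with at least 1 TPM in at least 3 libraries were tested with limma 3.58.1 (R 4.3.3, variance trend) on log2(TPM + 1), Benjamini-Hochberg adjusted over all 13211, threshold 0.05. The script was tested on simulated data. Fold changes on this scale understate the change of low genes. Members and gene lists were chosen with earlier results of these data known. Named genes are the 6, the 3 of smallest p per list, relatives of the response genes, the label checks and the 3 nearest profiles, of which some are not reported here. Others (Nr3c2, Hsd11b1, Abcb1a, Cyp11a1, Ep300, Il7r, Per1 and Hsp90ab1) were chosen after their values were seen. Sequences are from the RefSeq promoter table of GRCm38, the same assembly as mm10. Exons and transcripts are from GENCODE M21. Alternatives were another pseudocount, filter, scaling, test, weighting or covariate, a replicate block, and leaving out each library.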

Additional observations from a re-analysis of the deposited data

How the results depend on the processing

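No gene passed the limma threshold over all genes in the reported fit, with a pseudocount of 0.1, without a filter, with a filter of 5 TPM, with median centring, with voom on recovered reads, without the variance trend, with the replicate block or with the epithelial covariate. With array weights 582 genes passed, among them 8 of the 35 genes named from the lists and none of the 6 members. Leaving out 1 library gave 0 to 7 genes, with 7 without replicate 1 labelled WT, 1 without replicate 2 labelled WT and 0 without any other. The differences of Tsc22d3 and Sgk1 kept their direction in all 15 alternatives. Leaving out 1 library moved Nr3c1 from -0.15 to 0.40, Fkbp5 from -0.024 to 0.36, Dusp1 from -0.35 to 0.14 and Klf9 from -0.19 to 0.41. Klf9 was also -0.05 without replicate 1 labelled WT and -0.145 without replicate 2 labelled KO. With array weights Dusp1 was 0.077. With the epithelial covariate Nr3c1 was -0.012, Klf9 -0.50, Hsd11b2 -0.05, Srd5a1 -0.11, Mapk13 -0.075, Klf5 -0.32, Tsc22d1 -0.067 and Tsc22d4 0.22, and Tsc22d4 was 0.03 without replicate 1 labelled KO. These were changes of sign, and 29 of the 35 genes named from the lists kept their direction in all alternatives. The epithelial score did not overlap between the groups, so score and label cannot be told apart. Of other named genes, a single library moved Fkbp4 to 0.165 (without replicate 1 labelled WT), Mapk13 to 0.41 (without replicate 2 labelled KO), Klf5 to 0.48 and Srd5a1 to 0.40 (both without replicate 2 labelled WT), and Jun to -0.22 (without replicate 3 labelled KO). The cause of these changes was not tested. The replicate numbers gave no pairing: deviations from the group means correlated at 0.00, -0.22 and -0.04 for replicates 1, 2 and 3. No library correlated best with its own number. The fit with the replicate block called 0 genes and changed no call; without it the count was also 0.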
